A study of Mus musculus with 6 samples.

Results

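Genes for making ribosomes and for the RNA polymerases that transcribe their RNA were examined in mouse CD8+ T cells grown with or without aminooxyacetic acid (AOA), an inhibitor of enzymes that use the vitamin B6 cofactor PLP. The 52 genes were taken by symbol from the 11922 genes of the deposited count table, as those named Nop, Utp or Rrp with a number, those beginning with Polr1 or Polr3, and Ncl, Npm1, Fbl, Dkc1, Nolc1, Bop1, Pes1, Wdr12, Nhp2 and Gar1. All 52 passed the filter on low counts. Splenic CD8+ T cells of 3 C57BL6/J mice were activated for 72 hours with beads carrying antibodies to CD3 and CD28 and 100 units per ml of IL-2, then expanded for 4 days in IL-2 alone. Water (vehicle) or 0.25 mM AOA was present for all 7 days, and cells of every mouse went into both groups, which gave 3 vehicle and 3 AOA libraries named here by mouse number. In RNA from whole cultures, fewer cells of a type and less RNA per cell cannot be told apart.

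A ribosome starts in the nucleolus, where RNA polymerase I transcribes the long precursor of most ribosomal RNA, while RNA polymerase III makes the 5S ribosomal RNA and transfer RNAs in the nucleoplasm. Small nucleolar ribonucleoproteins (snoRNPs) then modify the precursor, those of the box C/D kind by methylation of ribose and those of the box H/ACA kind by turning uridine into pseudouridine. The small subunit processome and the large subunit assembly factors fold, cut and trim it into the small and large subunits. T cells build many ribosomes when they leave rest and begin to divide, and MYC is a known activator of these genes.

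Of the 52 genes, 35 were higher with AOA and 2, Polr3gl and Nop53, were lower, by edgeR's quasi-likelihood test at a Benjamini-Hochberg adjusted p under 0.05 over the 11759 genes tested. That is 67.3% higher and 3.85% lower, against 26.2% higher and 26.8% lower among all genes tested. The median log2 fold change of the 52 was 0.84, against -0.02 over all genes, and 37 were higher in AOA than in vehicle in each of the 3 mice, against 35.8% of all genes tested. In 37 all 3 AOA libraries lay above all 3 vehicle libraries, 71.2% of the 52 against 31.0% of all genes tested, and in 5 all lay below, against 31.1% of all genes tested. All 7 snoRNP core proteins and all 3 subunits particular to RNA polymerase I under these names were higher, and the subunits shared by RNA polymerases I and III were not called. In the heat map of single libraries the higher level with AOA fills most rows of every role except the shared subunits and the nucleolar chaperones.

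**Figure D1:**
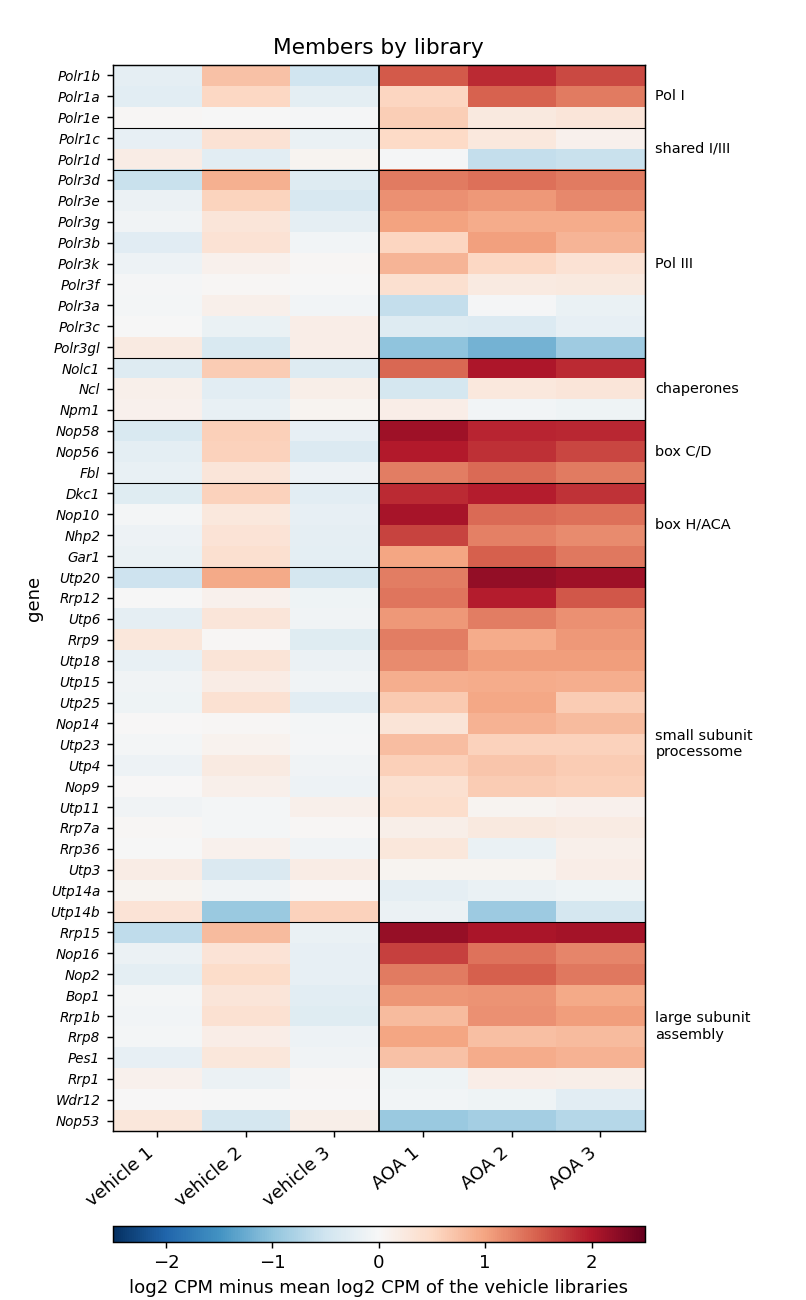
Level in each library of 51 of the 52 genes, as log2 CPM (counts scaled to the normalised size of the library) minus the mean log2 CPM of the 3 vehicle libraries, on a scale from blue (lower) to red (higher), with genes grouped by role. The values run from -1.19 to 2.19, the AOA columns are red for most genes and blue for Polr3gl and Nop53, and vehicle 2 is redder than vehicle 1 and 3 in many rows.

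Total counts ran from 12881962 to 18934869 in vehicle and from 18696114 to 21997078 in AOA libraries. Vehicle 2 stood apart for these genes, being the highest vehicle library for 37 of the 52 (71.2%, against 42.2% of all genes tested), with a median difference of 0.36 in log2 CPM from the mean of vehicle 1 and 3, against 0.01 over all genes. Without vehicle 2, 36 genes were called higher and 4 lower, and the median log2 fold change was 1.03. AOA 1 differed from AOA 2 and 3 by gene length. Over the 52 genes its difference in log2 CPM from their mean had a Pearson r of -0.60 and a Spearman rho of -0.51 with log length, close to the -0.49 and -0.50 over all 11759 genes, in values that share the same libraries. The AOA over vehicle log2 fold change itself had an r of 0.07 with log length over the 52. Without AOA 1, the calls described below changed for Polr1e, Polr3d and Polr1d.

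**Figure D2:**
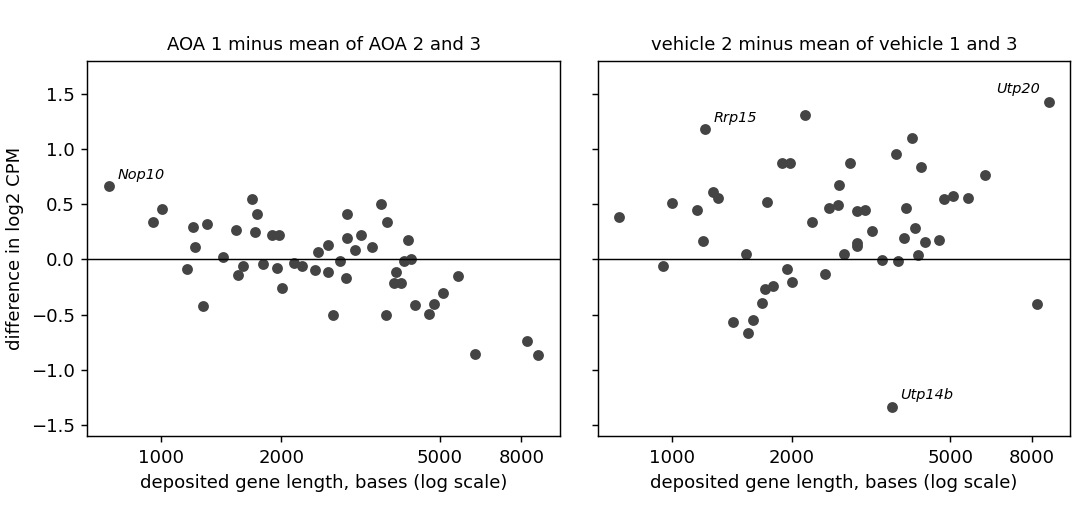
Difference in log2 CPM of AOA 1 from the mean of AOA 2 and 3 (left) and of vehicle 2 from the mean of vehicle 1 and 3 (right), against the gene length given in the count table in bases on a log axis, 1 point for each of 51 of the 52 genes. On the left the points slope down from Nop10, the shortest gene, to the longest, and on the right most points lie above 0.

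The sum of the 52 genes rose less than most of its members. Together they took 0.614%, 0.589% and 0.601% of the counts of vehicle 1, 2 and 3, and 0.722%, 0.799% and 0.781% of those of AOA 1, 2 and 3. The means were 0.601% ± 0.0124 (SD, n = 3) and 0.767% ± 0.0402 (SD, n = 3), a ratio of 1.28, and the groups did not overlap, for which an exact two-sided permutation test gives a p of 0.1 over free exchange of the libraries and 0.25 over exchange within mice, the smallest that each can give. Ncl, Npm1 and Nop53, the 3 genes of the 52 with the highest levels per kilobase, took between 52.4% and 63.1% of these counts with vehicle and between 42.1% and 46.3% with AOA, and none of them was called higher. Without Ncl and Npm1 the means were 0.308% ± 0.0183 (SD, n = 3) and 0.463% ± 0.0138 (SD, n = 3), a ratio of 1.503.

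**Figure D3:**
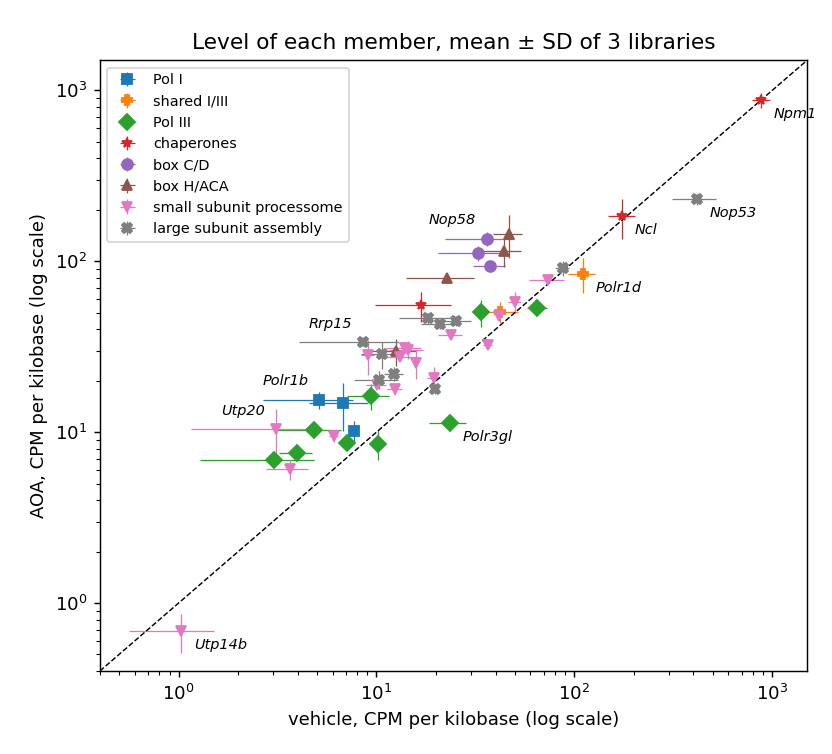
Mean level with AOA against mean level with vehicle for 51 of the 52 genes, in CPM per kilobase of the length in the count table, both axes on a log scale, with bars of 1 SD over 3 libraries, and with colour and shape for the role. Npm1 lies on the line of equal levels at 879 in both groups, the box C/D and box H/ACA genes all lie above the line, and Nop53 and Polr3gl lie below it.

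RNA polymerase I was represented by 3 subunits particular to it, all higher, with a median log2 fold change of 1.12. Polr1b, the second largest subunit (chr2:129100970-129128060, RefSeq on GRCm38.p6, as for all coordinates here), had 16.3, 31.8 and 13.5 CPM in vehicle 1, 2 and 3 and 55.7, 69.7 and 60.1 CPM in AOA 1, 2 and 3. The lowest AOA library was thus well above vehicle 2, the highest of its group, and the log2 fold change was 1.59 ± 0.29 (SE, adjusted p = 0.00167 by edgeR). Polr1a, the largest subunit, which forms most of the active site, had 33.6, 57.3 and 33.9 CPM with vehicle and 58.5, 112 and 99.6 CPM with AOA. AOA 1 lay just above vehicle 2 there, and the log2 fold change was 1.12 ± 0.28 (SE, adjusted p = 0.00841 by edgeR). Polr1e, a subunit of the part that aids initiation and elongation, had 29.0, 28.2 and 27.8 CPM with vehicle and 43.4, 33.4 and 35.0 CPM with AOA, so that the groups did not overlap while AOA 1 was apart from the others. Its log2 fold change of 0.40 ± 0.15 (SE) passed the test narrowly (adjusted p = 0.0452 by edgeR), and did not in a fit with mouse as replicate block (adjusted p = 0.0610) or without vehicle 1, vehicle 3, AOA 1 or AOA 3 (adjusted p from 0.0740 to 0.106).

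Polr1c and Polr1d, which pair with each other and serve RNA polymerases I and III alike, were not called in either direction. Polr1c had 46.7, 69.8 and 48.3 CPM with vehicle and 76.3, 64.4 and 58.1 CPM with AOA, where vehicle 2 lay within the AOA range (log2 fold change 0.27 ± 0.18 SE, adjusted p = 0.243 by edgeR). Without vehicle 2 it was called higher, with an adjusted p of 0.0160. Polr1d had 209, 154 and 194 CPM with vehicle and 182, 122 and 125 CPM with AOA, with AOA 1 inside the vehicle range (log2 fold change -0.38 ± 0.19 SE, adjusted p = 0.125 by edgeR). Without AOA 1 it was called lower, with an adjusted p of 0.0212. Other subunits of RNA polymerase I stand in the count table under older names, and of these Cd3eap and Twistnb were higher by 1.24 ± 0.27 and 1.04 ± 0.19 (log2 fold change, SE), while Znrd1 was not called.

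Of 10 genes particular to RNA polymerase III, 6 were higher, Polr3gl was lower and 3 were not called, with a median log2 fold change of 0.69. Polr3d and Polr3e form a pair of subunits that acts in initiation and termination. Polr3d had 4.05, 10.97 and 4.72 CPM with vehicle and 14.6, 15.3 and 14.5 CPM with AOA, a log2 fold change of 1.17 ± 0.34 (SE, adjusted p = 0.0173 by edgeR), with vehicle 2 far above vehicle 1 and 3. That call was lost without vehicle 1 (adjusted p = 0.0531), without vehicle 3 (0.0537) and without AOA 1 (0.0615). Polr3e had 17.7, 29.0 and 14.9 CPM with vehicle and 43.7, 41.7 and 45.4 CPM with AOA, with AOA libraries close together and all above vehicle (log2 fold change 1.09 ± 0.23 SE, adjusted p = 0.00378 by edgeR).

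The active centre of RNA polymerase III is formed by Polr3a and Polr3b. Polr3b, the second largest subunit, was higher, with a log2 fold change of 0.80 ± 0.20 (SE, adjusted p = 0.00770 by edgeR). Polr3a, the largest, was not called, with 46.0, 51.7 and 45.5 CPM against 31.4, 46.5 and 42.5 CPM (log2 fold change -0.25 ± 0.17 SE). Polr3k, a small subunit needed for cleavage of the transcript at pausing, was higher by 0.58 ± 0.16 (log2 fold change, SE, adjusted p = 0.0118 by edgeR). Polr3c and Polr3f, which form a trimer with Polr3g or Polr3gl that meets the initiation factors, were not called. Polr3c had the highest level per kilobase of the genes particular to RNA polymerase III. It had 115, 104 and 131 CPM against 93.2, 91.8 and 100 CPM, and every AOA library lay below every vehicle library (log2 fold change -0.30 ± 0.13 SE, adjusted p = 0.0854 by edgeR). It was called lower without vehicle 2 (adjusted p = 0.0484).

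Polr3g and Polr3gl are alternative forms of the third member of this trimer, of which Polr3g is known for its high level in stem cells and tumours and Polr3gl for its presence in many tissues. They moved in opposite directions. Polr3g (chr13:81673837-81711013) had 11.3, 14.8 and 10.3 CPM with vehicle and 24.2, 22.7 and 22.8 CPM with AOA, without overlap, a log2 fold change of 0.94 ± 0.18 (SE, adjusted p = 0.00210 by edgeR). Polr3gl (chr3:96577872-96594181) had 38.3, 25.4 and 36.9 CPM with vehicle and 16.4, 14.5 and 17.9 CPM with AOA, where every AOA library was below every vehicle library and vehicle 2 was the nearest to AOA (log2 fold change -1.04 ± 0.19 SE, adjusted p = 0.00164 by edgeR). Per kilobase, Polr3g made up 12.1%, 21.4% and 11.5% of the pair in vehicle 1, 2 and 3 and 40.8%, 42.3% and 37.3% in AOA 1, 2 and 3. The mean share went from 15.0% ± 5.55 (SD, n = 3) to 40.1% ± 2.55 (SD, n = 3), and per kilobase Polr3gl had the higher level of the pair in every library.

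**Figure D4:**
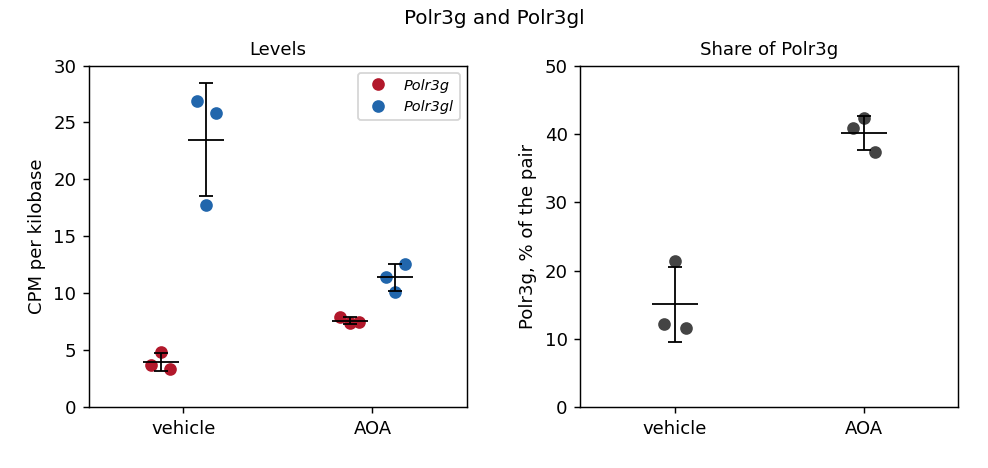
Levels of Polr3g and Polr3gl in CPM per kilobase (left) and the share of Polr3g in the sum of the pair in percent (right), 1 point for each library, with lines at the mean and bars of 1 SD over 3 libraries. The 3 AOA libraries hold shares of 37.3% to 42.3%, above the vehicle range of 11.5% to 21.4%.

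All 3 core proteins of the box C/D snoRNP in the set were higher with AOA, with a median log2 fold change of 1.77, the highest of any role. Nop58 (chr1:59684961-59711510), which with Nop56 forms the scaffold of the particle, had 52.1, 102 and 59.3 CPM with vehicle and 296, 256 and 251 CPM with AOA. Every AOA library was far above vehicle 2, the highest of its group, and the log2 fold change was 1.91 ± 0.24 (SE, adjusted p = 0.000272 by edgeR). Nop56 ranged from 47.0 CPM in vehicle 3 to 88.8 CPM in vehicle 2 and had 233, 211 and 190 CPM with AOA, a log2 fold change of 1.77 ± 0.24 (SE, adjusted p = 0.000370 by edgeR). Fbl (fibrillarin), the methyltransferase of the particle, went from 38.2, 53.0 and 39.7 CPM to 104, 116 and 107 CPM, a log2 fold change of 1.32 ± 0.16 (SE, adjusted p = 0.000177 by edgeR). Per kilobase, Nop58, Nop56 and Fbl had vehicle means between 32.7 and 37.6 CPM and AOA means between 94.0 and 135 CPM.

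All 4 core proteins of the box H/ACA snoRNP were higher as well, with a median log2 fold change of 1.51. Dkc1 (dyskerin, chrX:75095854-75109776), the pseudouridine synthase, which also binds telomerase RNA, had 49.0, 90.9 and 50.3 CPM with vehicle and 222, 236 and 213 CPM with AOA, without overlap (log2 fold change 1.82 ± 0.24 SE, adjusted p = 0.000291 by edgeR). Nop10, the shortest gene of the 52 and the one of this particle with the highest level per kilobase, had 33.0, 40.6 and 29.4 CPM with vehicle and 142, 90.7 and 88.8 CPM with AOA. AOA 1 was apart from AOA 2 and 3 there, all 3 were above vehicle, and the log2 fold change was 1.64 ± 0.21 (SE, adjusted p = 0.000297 by edgeR). Nhp2 went from 40.2, 55.6 and 37.7 CPM to 140, 105 and 99.2 CPM (log2 fold change 1.37 ± 0.19 SE, adjusted p = 0.000469 by edgeR). Gar1 rose by 1.25 ± 0.21 (log2 fold change, SE). The 4 proteins differ in level per kilobase, with vehicle means from 12.5 CPM for Gar1 to 46.6 CPM for Nop10.

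Of 17 members of the small subunit processome, 11 were higher, none was lower and 6 were not called, with a median log2 fold change of 0.64. Utp20 (chr10:88746607-88826814) encodes a very large scaffold protein and is the longest gene of the 52 by the length in the count table. It had 16.9, 47.2 and 18.02 CPM with vehicle and 59.3, 111 and 106 CPM with AOA. Vehicle 2 and AOA 1 were each apart from the rest of their group without overlapping, and the log2 fold change was 1.75 ± 0.40 (SE, adjusted p = 0.00531 by edgeR). Rrp12, which acts on late small subunit precursors and their export, had 38.7, 42.0 and 36.4 CPM with vehicle and 98.6, 153 and 114 CPM with AOA, with vehicle libraries close together (log2 fold change 1.64 ± 0.18 SE, adjusted p = 0.000114 by edgeR). Utp6 went from 45.5, 66.1 and 50.3 CPM to 114, 129 and 117 CPM (log2 fold change 1.15 ± 0.16 SE, adjusted p = 0.000428 by edgeR). Utp18, which is in the same subcomplex (UtpB), rose by 1.07 ± 0.16, and Utp15 and Utp4 of the UtpA subcomplex by 0.91 ± 0.13 and 0.63 ± 0.14 (log2 fold change, SE). Rrp9, which binds the U3 snoRNA, rose by 1.08 ± 0.18. Utp25, Nop14, Utp23 and Nop9 rose by between 0.54 and 0.74 on the log2 scale.

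The 6 processome members without a call were Utp11, Rrp7a, Rrp36, Utp3, Utp14a and Utp14b, with log2 fold changes between -0.59 and 0.22. Utp3 had the highest vehicle and AOA levels per kilobase of the 17, with 132, 90.2 and 132 CPM against 122, 123 and 131 CPM (log2 fold change 0.08 ± 0.16 SE). Utp14a and its retroposed copy Utp14b, which is known from the testis, encode a factor that activates the helicase Dhx37. Utp14a had 92.9, 83.4 and 90.2 CPM with vehicle and 75.9, 79.6 and 82.1 CPM with AOA, so that every AOA library was below every vehicle library by a small margin (log2 fold change -0.17 ± 0.12 SE, adjusted p = 0.265 by edgeR). Utp14b had the lowest level of all 52 genes, with 4.29, 1.78 and 4.99 CPM against 3.03, 1.797 and 2.47 CPM, and its log2 fold change of -0.59 ± 0.40 (SE, adjusted p = 0.240 by edgeR) was within the spread of vehicle. Without vehicle 2, its lowest vehicle library, it was called lower (adjusted p = 0.0226). It made up 2.71% ± 1.14 (SD, n = 3) of the pair per kilobase with vehicle and 2.06% ± 0.571 (SD, n = 3) with AOA. Utp14b shares exon sequence with Acsl3 on the same strand and is a copy of Utp14a, so its counts are uncertain.

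Of 10 large subunit assembly factors, 7 were higher, Nop53 was lower and 2 were not called, with a median log2 fold change of 0.91. Rrp15 (chr1:186721086-186749358), a component of early large subunit precursors, had 6.11, 16.4 and 8.47 CPM with vehicle and 42.7, 38.8 and 40.2 CPM with AOA. Its AOA libraries were close together and far above vehicle 2, and its log2 fold change of 1.97 ± 0.31 (SE, adjusted p = 0.000757 by edgeR) was the largest of the 52. Nop16 went from 16.4, 23.2 and 15.9 CPM to 59.3, 46.5 and 42.6 CPM (log2 fold change 1.42 ± 0.20 SE, adjusted p = 0.000418 by edgeR). Nop2, which methylates a cytosine of the large ribosomal RNA, went from 39.3, 64.1 and 40.8 CPM to 115, 132 and 117 CPM (log2 fold change 1.34 ± 0.20 SE, adjusted p = 0.000541 by edgeR). Rrp8, which methylates an adenosine of that RNA, and Rrp1b rose by 0.84 ± 0.14 and 0.98 ± 0.19 (log2 fold change, SE).

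Pes1, Bop1 and Wdr12 form the PeBoW complex of the large subunit pathway and did not share a call. Bop1 had 49.9, 63.8 and 42.7 CPM with vehicle and 110, 112 and 98.6 CPM with AOA, and Pes1 had 62.9, 88.9 and 68.3 CPM with vehicle and 120, 139 and 132 CPM with AOA, without overlap in either. Their log2 fold changes were 1.04 ± 0.16 and 0.83 ± 0.16 (SE, adjusted p = 0.000826 and 0.00204 by edgeR). Wdr12 had 66.6, 66.3 and 66.7 CPM with vehicle and 63.4, 62.0 and 55.5 CPM with AOA, so that all AOA libraries were slightly below vehicle (log2 fold change -0.14 ± 0.12 SE, adjusted p = 0.345 by edgeR). The difference in response between Wdr12 and the other subunits was not tested. Rrp1 was not called either, with a log2 fold change of 0.07 ± 0.14 (SE).

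Nop53 (chr7:15937835-15946108) is an assembly factor that brings the RNA exosome to the large subunit precursor and is also known as a regulator of p53. It had the second highest level per kilobase of the 52 genes in both groups. Its counts came to 775, 467 and 707 CPM with vehicle and 336, 351 and 390 CPM with AOA, with every AOA library below every vehicle library and vehicle 2 the lowest of its group. The log2 fold change was -0.86 ± 0.20 (SE, adjusted p = 0.00619 by edgeR).

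The nucleolar chaperones divided into 1 gene that rose and 2 that were not called. Nolc1, which accompanies snoRNPs and their RNAs, went from 46.9, 91.2 and 46.7 CPM to 158, 237 and 213 CPM (log2 fold change 1.72 ± 0.28 SE, adjusted p = 0.000883 by edgeR). Ncl (nucleolin, chr1:86344719-86359455), an RNA-binding protein abundant in the nucleolus, had 1560, 1186 and 1588 CPM with vehicle and 1050, 1729 and 1770 CPM with AOA. The AOA range enclosed the vehicle range, AOA 1 being the lowest and AOA 2 and 3 the highest of all libraries, and the log2 fold change was 0.07 ± 0.23 (SE, adjusted p = 0.819 by edgeR). Npm1 (nucleophosmin, chr11:33152498-33164142), a histone and ribosomal protein chaperone and the gene with the highest level per kilobase of the 52, had 1621, 1330 and 1580 CPM with vehicle and 1686, 1439 and 1405 CPM with AOA, with overlapping ranges (log2 fold change -0.00 ± 0.17 SE, adjusted p = 0.998 by edgeR). Npm1 has processed copies in the genome that can share its reads. According to the methods only uniquely mapped reads were counted, so reads that match Npm1 and a copy equally were left out.

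**Figure D5:**
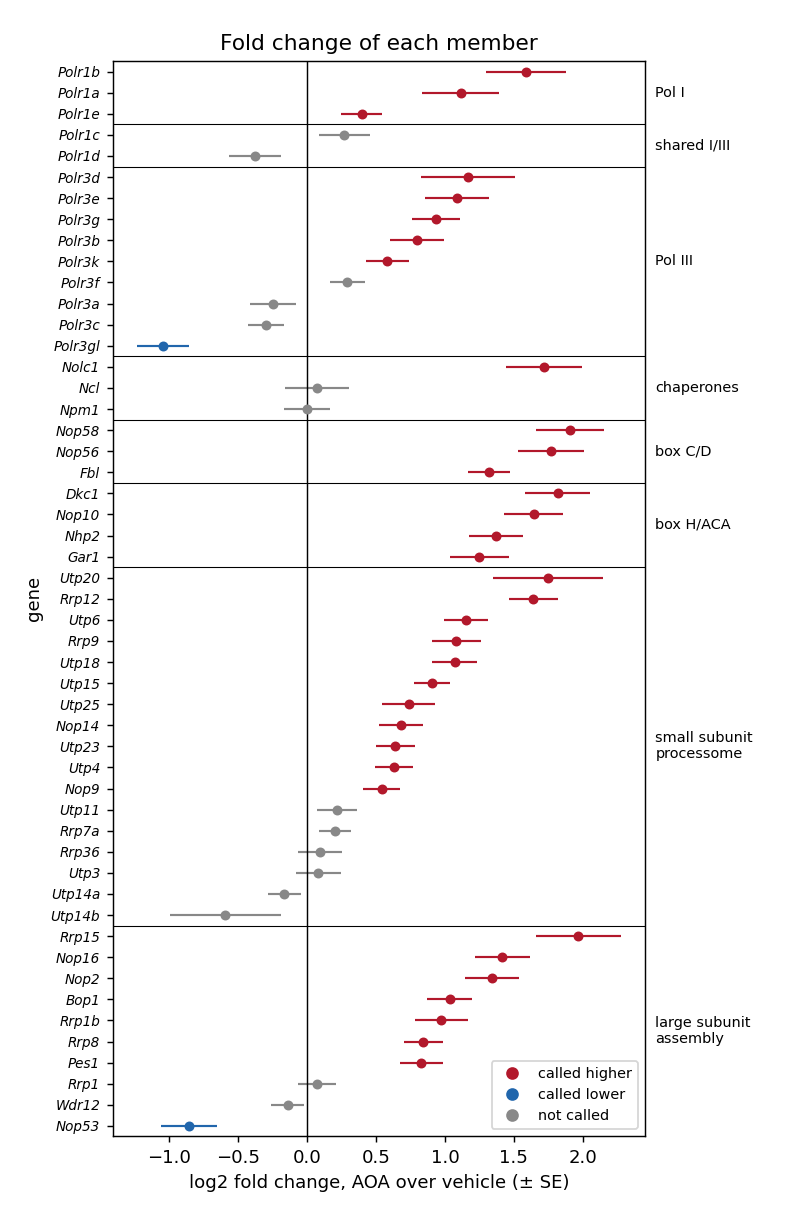
Log2 fold change of AOA over vehicle for 51 of the 52 genes by edgeR, with bars of 1 SE, grouped by role and coloured by call at an adjusted p under 0.05. The 34 genes shown as called higher lie between 0.40 (Polr1e) and 1.97 (Rrp15), and the 2 called lower are Polr3gl at -1.04 and Nop53 at -0.86.

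Of the 52 genes, 6 host snoRNAs within their gene bounds in the GENCODE vM21 annotation, 15 snoRNAs in all, of which 5 lie in Nop56, 4 in Nop58, 3 in Ncl and 1 each in Dkc1, Nop53 and Polr3c. The hosts include genes called higher, called lower and not called. For 18 genes the exons overlap a gene on the opposite strand, a protein-coding gene in 13 of them. Among these 13 are Polr3gl, Nop56, Dkc1, Nhp2, Bop1, Pes1 and Wdr12. The libraries kept the strand, but the sources used here do not say whether the counting used it, so reads from the partner gene may be part of these counts.

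The promoters of these genes were searched for CACGTG, the core E-box that MYC and MAX as well as other factors of their kind bind, in windows from 250 bases before to 50 after the start (RefSeq, GRCm38.p6). CACGTG reads the same on both strands. The windows of 41 of the 52 genes were found by symbol or gene number, and 11 of these (26.8%) held the motif, against 1122 of 9438 tested genes (11.9%) and 7.15% of all 32851 windows. Among the genes called higher it was found in 7 of 28 (25.0%), and among the others in 4 of 13 (30.8%). Over all tested genes it was in 13.7% of those called higher, 10.8% of those called lower and 11.5% of those not called. The motifs of the 7 genes called higher are shown first, then that of Polr3gl, called lower, and those of the 3 not called, to show where the motif lies, each position once, with CACGTG in capitals and each written 5′ to 3′ on the strand of its gene.
Nop2, chr6:125131813-125131838, + strand, motif from base 60 before the start: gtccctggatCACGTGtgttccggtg
Pes1, chr11:3963967-3963992, + strand, motif from base 3 after the start: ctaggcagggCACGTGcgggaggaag
Polr3e, chr7:120917773-120917798, + strand, motif from base 6 after the start: ccgctcccccCACGTGtccggcggag
Utp18, chr11:93885771-93885796, - strand, motif from base 20 before the start: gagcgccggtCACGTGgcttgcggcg
Utp20, chr10:88826765-88826787, - strand, motif from base 38 after the start: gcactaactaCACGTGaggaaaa
Utp25, chr1:193130213-193130238, - strand, motif from base 24 after the start: ccagcgtgccCACGTGcgacagcgac
Utp4, chr8:106893645-106893670, + strand, motif from base 16 after the start: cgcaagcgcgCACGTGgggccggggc
Polr3gl, chr3:96594360-96594385, - strand, motif from base 194 before the start: ctggctccgcCACGTGtctggatgag
Polr3c, chr3:96727661-96727686, - strand, motif from base 237 before the start: ccgcaagggtCACGTGagtccgcccg
Rrp7a, chr15:83122994-83123019, - strand, motif from base 208 before the start: gcctgtgcacCACGTGtcctggaact
Utp14b, chr1:78658367-78658392, + strand, motif from base 63 before the start: cgggcgcgggCACGTGggtggggtcg
Distances count from a transcript start of RefSeq, which for Polr3c, Utp14b and Utp25 is not the outer bound of the gene. The motif of Utp25 lay in all 3 of its windows and its distance is given from 1 of its 3 starts.

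The 250 bases before the start are given whole for the 3 genes with the largest rise and for Polr3gl, since they are the extremes of the set. The transcript start used for Nop58 lies inside the gene bounds given above, so that the end of its sequence is within them. No CACGTG is in the sequences of Rrp15, Nop58 and Dkc1, which have no capitals, and that of Polr3gl holds 1.
Rrp15, chr1:186749359-186749608, - strand: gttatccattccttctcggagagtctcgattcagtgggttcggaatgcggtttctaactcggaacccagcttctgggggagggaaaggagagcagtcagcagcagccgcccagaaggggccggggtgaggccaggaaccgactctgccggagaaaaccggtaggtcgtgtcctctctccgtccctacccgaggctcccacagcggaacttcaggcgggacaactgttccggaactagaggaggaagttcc
Nop58, chr1:59684756-59685005, + strand: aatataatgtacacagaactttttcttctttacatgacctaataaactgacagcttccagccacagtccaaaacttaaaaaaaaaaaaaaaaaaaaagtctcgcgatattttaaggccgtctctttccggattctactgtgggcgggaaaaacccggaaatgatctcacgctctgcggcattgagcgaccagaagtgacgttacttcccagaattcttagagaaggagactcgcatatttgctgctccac
Dkc1, chrX:75095604-75095853, + strand: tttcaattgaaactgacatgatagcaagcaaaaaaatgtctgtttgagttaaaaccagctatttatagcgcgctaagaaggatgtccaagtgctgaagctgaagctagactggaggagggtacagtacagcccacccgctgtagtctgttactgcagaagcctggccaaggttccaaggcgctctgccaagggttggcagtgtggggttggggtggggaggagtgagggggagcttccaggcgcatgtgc
Polr3gl, chr3:96594182-96594431, - strand: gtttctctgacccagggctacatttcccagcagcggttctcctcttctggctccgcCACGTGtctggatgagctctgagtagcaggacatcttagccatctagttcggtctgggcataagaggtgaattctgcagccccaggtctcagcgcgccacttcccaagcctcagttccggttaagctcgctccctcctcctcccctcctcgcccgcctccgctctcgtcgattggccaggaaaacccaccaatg
A match to these letters is a description of the sequence, and binding was not measured here.

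Other genes of the same pathway, taken from lists of known factors, were compared in the same fit, in which 26.2% of all genes tested were higher and 26.8% lower. Of 13 snoRNP assembly factors 11 were higher, none was lower and the median log2 fold change was 0.90 (84.6% higher), among them Shq1, the chaperone of dyskerin (1.56 ± 0.21, log2 fold change and SE), and Snu13, which binds box C/D RNA (1.40 ± 0.19). Of 33 further small subunit processome factors 23 were higher and 1, the helicase gene Ddx52, was lower, with a median of 0.76 (69.7% higher and 3.03% lower). Pwp2 and Rcl1 were the highest of these, at 1.57 ± 0.22 and 1.37 ± 0.26. Of 12 factors of later small subunit maturation 8 were higher, Pno1 (1.56 ± 0.30) and Bysl (1.40 ± 0.26) at their head, and 1, the 18S RNA modifying enzyme gene Tsr3, was lower, with a median of 0.73 (66.7% higher and 8.33% lower). Both lower calls, at -0.41 ± 0.13 for Ddx52 and -0.59 ± 0.18 for Tsr3, were lost without vehicle 1, vehicle 3, AOA 2 or AOA 3, with adjusted p from 0.0551 to 0.139 for Ddx52 and from 0.0650 to 0.0896 for Tsr3.

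Of 48 further large subunit factors 33 were higher, 4 were lower and the median log2 fold change was 0.81, where 68.8% higher stood against the 26.2% and 8.33% lower against the 26.8% of all genes tested. Gnl3 (nucleostemin), a GTPase of the nucleolus, rose by 1.92 ± 0.29, and Rpf2, which places the 5S ribonucleoprotein, by 1.53 ± 0.27. Among the 4 lower were Zfp622 (-1.22 ± 0.16) and Sbds (-0.57 ± 0.14), both of which act on the late, cytoplasmic large subunit, and without vehicle 1 the lower calls in this list were 2. Of 16 genes of the RNA exosome, the nuclease that trims precursor RNA, and its cofactors, 14 were higher (87.5%) and none lower, with a median of 1.03. Its nuclease Dis3 had 15.3, 23.0 and 15.7 CPM with vehicle and 74.8, 72.0 and 75.2 CPM with AOA (log2 fold change 2.04 ± 0.18 SE, adjusted p = 3.87e-05 by edgeR), and the cap subunit Exosc2 rose by 1.86 ± 0.21.

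Further factors of RNA polymerases I and III were mixed. Not all of them bring the polymerases to their genes, as the lists also hold the termination factor Ttf1, the repressor Maf1, Ssb and Crcp. Of 11 RNA polymerase I factors and subunits under older names, 5 were higher, 3 were lower and the median log2 fold change was 0.08, where 45.5% higher lay above the 26.2% and 27.3% lower near the 26.8% of all genes tested. Without the subunits Cd3eap, Twistnb and Znrd1, already described, 3 of 8 were higher and 3 lower. Ubtf (UBF), which holds ribosomal DNA open, had 128, 187 and 129 CPM with vehicle and 231, 265 and 274 CPM with AOA (log2 fold change 0.80 ± 0.18 SE, adjusted p = 0.00483 by edgeR). Rrn3, the growth-regulated factor that joins the polymerase to the promoter, went from 56.5, 75.6 and 61.8 CPM to 97.6, 101 and 91.0 CPM (log2 fold change 0.58 ± 0.14 SE, adjusted p = 0.00776 by edgeR). Taf1d, a subunit of the promoter factor SL1, and Ttf1, the termination factor, were lower, at -0.98 ± 0.21 and -0.93 ± 0.16. Of 19 RNA polymerase III factors 6 were higher and 2 lower, with a median of 0.15, where 31.6% higher lay near the 26.2% and 10.5% lower below the 26.8% of all genes tested. Gtf3c5 and Gtf3c6 of TFIIIC, which binds tRNA gene promoters, rose by 0.90 ± 0.13 and 0.80 ± 0.20. Maf1, the repressor of RNA polymerase III, had 163, 122 and 165 CPM with vehicle and 107, 94.3 and 91.0 CPM with AOA (log2 fold change -0.62 ± 0.15 SE, adjusted p = 0.00791 by edgeR), and Brf1, a subunit of the initiation factor TFIIIB, was lower by a smaller margin (-0.42 ± 0.12) that was not called without vehicle 1 (adjusted p = 0.0752) or without AOA 2 (0.0611).

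Of 14 tested genes of the MYC network and growth control, 4 were higher, Mycn (2.46 ± 0.18, log2 fold change and SE) and Trp53 (0.72 ± 0.15) at their head, and 6 were lower, and the median log2 fold change was -0.24, where 28.6% higher lay near the 26.2% and 42.9% lower above the 26.8% of all genes tested. Myc itself had 194, 192 and 151 CPM with vehicle and 230, 277 and 228 CPM with AOA (log2 fold change 0.45 ± 0.15 SE, adjusted p = 0.0331 by edgeR), a call lost without vehicle 1, vehicle 3, AOA 2 or AOA 3 (adjusted p from 0.0517 to 0.123), while the MYC antagonists Mxd1 and Mxi1 had log2 fold changes of -2.39 ± 0.19 and -2.04 ± 0.14.

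Markers of the labelled cell type were present throughout, the 10 CD8 T cell markers adding up to between 7805 and 9673 CPM with vehicle and between 7634 and 8590 CPM with AOA. Of these 10, 2 were higher, Cd8a and Cd8b1, and 4 lower, Cd2, Cd5, Zap70 and Ptprc, against 26.2% and 26.8% of all genes tested. Of the markers of other cells, the sums for CD4 T cells, myeloid cells and B cells did not overlap between the groups, while those for NK cells did. The 4 CD4 T cell markers summed to between 158 and 210 CPM with vehicle and between 33.0 and 54.3 CPM with AOA, with 3 of 4 lower. Of 9 myeloid markers 5 were in the table and summed to between 78.3 and 111 CPM with vehicle and between 5.19 and 10.04 CPM with AOA, all 3 tested being lower, while Csf1r, Adgre1, Fcgr1 and Spi1 were not in it. The 5 B cell markers in the table came to between 13.9 and 18.4 CPM with vehicle and between 23.1 and 30.9 CPM with AOA, with 1 higher and 1 lower of 5 tested. The 3 NK cell markers came to between 145 and 308 CPM with vehicle, highest in vehicle 2, and between 128 and 213 CPM with AOA, with 1 lower of 2 tested, and none of the 6 erythroid markers was in the table. Their part in the ribosome biogenesis results was not tested.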

How the data were processed

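CD8+ T cell RNA was sequenced from 3 vehicle and 3 AOA cultures. According to the labels and methods, the authors made stranded paired-end mRNA libraries, aligned reads with STAR's defaults, counted those mapped uniquely to each gene and deposited the raw counts with a gene length in bases. The submitters' processing notes name bcl2fastq, STAR, featureCounts, DESeq2 and mm10. The sources used here do not give the annotation, the strand setting of the counting or any gene filter. Total counts had a median of 15244646 with vehicle and 19546478 with AOA. The 6 count columns all belong to labelled samples, 1 row has no symbol and 18 symbols read as dates.

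The analysis used edgeR 4.0.16 in R 4.3.3: filterByExpr (minimum count 10), TMM scaling, the robust quasi-likelihood test and Benjamini-Hochberg adjustment at 0.05 over all 11759 genes. CPM use TMM library sizes. Log2 CPM have a prior count of 2 for the deviations by mouse and the length trend. The differences of single libraries add a smaller constant to the CPM, and the heat map adds none. The SE of a log2 fold change is its absolute value divided by the square root of the F statistic of the test. Levels per kilobase divide by the deposited length. DESeq2 1.42.0 and limma 3.58.1 (voom) were among the alternatives. Symbols of the 52 genes were matched by Entrez number to RefSeq coordinates on GRCm38.p6, the assembly that mm10 denotes, and 51 by symbol to GENCODE vM21. Python 3.11.15 with pandas 2.3.3 did the joins.

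The members, roles, pathway lists and markers were chosen with earlier results of these data known. The lists were edited once after values were seen, when duplicate names were dropped, the RNA polymerase I list was renamed and Rrs1 was moved to the large subunit list. Genes are given per library by rule, namely in each role up to 3 called per direction with the largest change, the highest per kilobase and the largest not called, with both paralogue pairs, Polr1c and Polr1d. In each other list up to 2 called per direction are given, with Myc, Ubtf, Rrn3 and Maf1. The values of 1 gene that the rule takes are not reported here, and it is left out of the figures. Bop1, Pes1, Polr3a, Polr3b and genes given by fold change alone were added after their values were seen.

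The pairing comes from the mouse donor labels. Across genes, the deviations of a mouse's libraries from their group means had r of 0.0868, 0.189 and 0.194 for mouse 1, 2 and 3. The chi-square per gene between replicates was 10.02 to 71.1, above sampling noise. Within a group the libraries come from separate mice, and the same 3 mice gave both groups. For AOA against vehicle, on 5 simulated data sets of 11759 genes in which 200 were changed, edgeR recovered 11.3% at 1.5-fold, 64.4% at 2-fold and 95.1% at 4-fold, and 8.33% of its calls were false. In the data 6233 genes were called, far more than the 200 changed in the simulation, so these rates may not hold there.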

Additional observations from a re-analysis of the deposited data

How the results depend on the processing

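The 35 higher and 2 lower calls and the median log2 fold change of 0.84 were recomputed with other size factors, DESeq2, limma, other low-count filters, thinned counts, the trend with gene length removed, the mouse as a block and each library left out. No call among the 52 genes changed direction, nor did their median log2 fold change. The median log2 fold change of all genes moved by at most 0.04, which took it from -0.0245 to 0.0155 without vehicle 2. With mouse as replicate block 34 genes were higher and 2 lower, and over all genes 6292 were called against 6233, of which 6007 were shared. Apart from Polr1e, the block changed no call among the 52 genes. With the length trend removed 4 genes were called lower, and 4 again with the block as well, the added genes being Polr1d and Polr3c (adjusted p = 0.0404 and 0.0419 without the block by edgeR). Leaving out each library in turn gave 33 to 36 higher, 2 to 4 lower and medians of 0.79 to 1.03, with the highest lower count and median without vehicle 2. Of the 35 higher calls 33 held in every such setting other than a fold requirement, the exceptions being Polr1e, lost also with limma, the 10 CPM filter and thinning, and Polr3d. Both lower calls held. A required log2 fold change of 1 or more left 22 higher and 1 lower, by construction. The AOA over vehicle ratio of the share of counts was 1.36 without Npm1, and 1.25 to 1.31 with each library left out. With counts thinned to the smallest total, only the call of Polr1e changed among the 52 genes (adjusted p = 0.0902 by edgeR), and Utp14b, the gene of lowest level, had 28 to 92 counts per library. The cause was not tested for any of these changes.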
